A study of Homo sapiens with 4 samples.

Results

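The PAX genes, PAX1 to PAX9, were examined for open chromatin in LNCaP prostate cancer cells and in enzalutamide-resistant cells derived from them. The members were the 9 genes of that name in the RefSeq annotation of GRCh38, out of 20033 protein-coding genes. For each gene, every deposited ATAC-seq summit within the gene body or within 50 kb of it on either side was taken. The family was chosen because PAX1 lies in a long stretch of regions found in LNCaP cells alone, so the members were selected on the presence of summits in the 2 cell types. The comparison between the cell types at these genes is therefore a description and was not tested.

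ATAC-seq reads out accessibility by letting a transposase cut and tag DNA wherever chromatin is open. LNCaP is an androgen-responsive line from a lymph node metastasis of prostate cancer and was labelled as wild type. The resistant cells carried the genotype label of resistance cells and were given enzalutamide, an inhibitor of the androgen receptor. Per the study's methods they came from LNCaP cells kept in charcoal-stripped serum and then in rising concentrations of the drug, whereas the labels give RPMI-1640 with fetal bovine serum for both cell types. The labels do not say which resistant subline was used, nor whether the 2 libraries of a cell type came from separate cultures. Drug exposure, long culture and selection of a subline cannot be told apart in this design, and in bulk cells a smaller share of open cells cannot be told apart from weaker opening in each cell.

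PAX proteins are transcription factors that bind DNA through a paired domain and direct the formation of organs in the embryo. They fall into 4 subgroups by their other domains. PAX1 and PAX9 lack a homeodomain, PAX2, PAX5 and PAX8 keep part of one, and PAX3, PAX7, PAX4 and PAX6 have a complete one. In adult tissue most members are expressed in few cell types. PAX2 and PAX8 are known from kidney and the genital ducts, PAX5 from B cells, PAX3 and PAX7 from muscle and neural crest, PAX4 and PAX6 from pancreas, PAX6 also from the eye, and PAX1 and PAX9 from the axial skeleton and pharyngeal pouches.

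The LNCaP lists held 117245 and 107344 summits, and the resistant lists 70866 and 45618. Each entry is a position and a significance score, on the −log10 scale of p or q. The lists carry no read counts, so the depth is unknown and no interval for it can be given. Scores were turned into percentiles within their own library, so that a summit at the 90th percentile scored at least as high as 90% of that library's summits. Widened by 250 bp on either side and merged, the summits formed 150917 regions, of which 27.5% were found in both LNCaP and neither resistant library (LNCaP-only) and 3.84% in both resistant and neither LNCaP library (resistant-only). All 7 luminal prostate markers had a summit within 3 kb of a gene end in each of the 4 libraries, and so did the 4 neuroendocrine markers. Of the 3 basal markers, KRT14 had one in every library and KRT5 in none. Of the 2 leukocyte markers, CD3E had one in every library and PTPRC in none. Of the 2 fibroblast markers, COL1A1 had one in every library and the other in the LNCaP libraries alone. A summit near a gene end is not expression, and the part of other cell types in the results was not tested.

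For 8 of the genes the RefSeq promoter table gives start sites, 19 in all, of which 9 belong to PAX6. PAX1 was not matched in it, so its gene ends are used. The 250 bases before 4 of these start sites are printed here, on the strand of the gene, as picked examples. The family as a whole did not show their contrast, as the counts in the section on start sites give. The PAX9 and PAX2 sites had a summit in every library, while the PAX5 and PAX7 sites are richer in CpG and had no summit within 1 kb. Within 3 kb, the PAX5 site had a summit in both resistant libraries. Capitals mark each CG dinucleotide. The sequences are those of RefSeq on GRCh38 at chr14:36661610-36661859 (plus strand), chr10:100745332-100745581 (plus strand), chr9:37034269-37034518 (minus strand) and chr1:18630596-18630845 (plus strand).
PAX9 second start site: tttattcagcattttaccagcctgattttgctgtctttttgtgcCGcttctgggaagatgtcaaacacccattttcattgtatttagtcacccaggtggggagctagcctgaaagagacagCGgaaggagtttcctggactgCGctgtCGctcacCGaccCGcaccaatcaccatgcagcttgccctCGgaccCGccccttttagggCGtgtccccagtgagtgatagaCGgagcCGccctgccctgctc
PAX2 second start site: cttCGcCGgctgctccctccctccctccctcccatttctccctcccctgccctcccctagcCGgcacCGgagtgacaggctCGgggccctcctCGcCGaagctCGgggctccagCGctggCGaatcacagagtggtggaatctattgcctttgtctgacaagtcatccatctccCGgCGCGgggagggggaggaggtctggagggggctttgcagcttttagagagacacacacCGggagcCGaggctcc
PAX5 start site: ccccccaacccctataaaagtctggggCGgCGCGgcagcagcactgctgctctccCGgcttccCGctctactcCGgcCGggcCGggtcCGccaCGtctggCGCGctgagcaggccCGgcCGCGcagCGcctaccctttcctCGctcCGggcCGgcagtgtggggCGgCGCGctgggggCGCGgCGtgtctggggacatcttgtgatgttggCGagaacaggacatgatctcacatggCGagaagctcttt
PAX7 start site: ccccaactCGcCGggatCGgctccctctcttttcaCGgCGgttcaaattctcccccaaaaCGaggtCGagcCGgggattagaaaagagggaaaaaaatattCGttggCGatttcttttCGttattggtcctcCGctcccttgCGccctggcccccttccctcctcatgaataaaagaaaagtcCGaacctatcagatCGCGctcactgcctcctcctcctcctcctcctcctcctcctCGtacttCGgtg

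Together the 9 windows held 81 and 81 summits in LNCaP cells and 70 and 41 in resistant cells. Per 10000 summits of the library, this came to 6.91 and 7.55 in LNCaP and to 9.88 and 8.99 in resistant cells. The PAX windows thus held fewer summits in the shorter lists, while their share of the list was higher in both resistant libraries than in both LNCaP libraries. PAX2 supplied 14 and 9 of these summits in LNCaP and 16 and 11 in resistant cells. The share was computed neither without PAX2 nor for all gene windows, so it cannot be set against the genome. The median window held 5.56 and 4.63 summits per 100 kb in LNCaP and 3.67 and 2.33 in resistant cells. Over all protein-coding genes the medians were 6.18, 5.78, 4.05 and 2.79, above those of the PAX genes in each library.

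Merging gave 117 regions in the PAX windows. Of these, 26 were shared by all 4 libraries (22.2%, against 21.1% of all regions), 29 were LNCaP-only (24.8%, against 27.5%) and 7 were resistant-only (5.98%, against 3.84%). The other 55 were found in an incomplete set of libraries (47%, against 47.6%). With a missing summit counted as percentile 0, both resistant libraries lay below both LNCaP libraries in 44 regions (37.6%, against 42.5%) and above them in 16 (13.7%, against 8.97%). Leaving out a library loosens the definition of a resistant-only region, so that count can rise for this reason alone. It was 22 without resistant replicate 2 and 11 without LNCaP replicate 1. With the full lists the family's share of LNCaP-only regions was near that of the genome, and with lists of equal length, described further on, it was lower than the genome's.

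**Figure D1:**
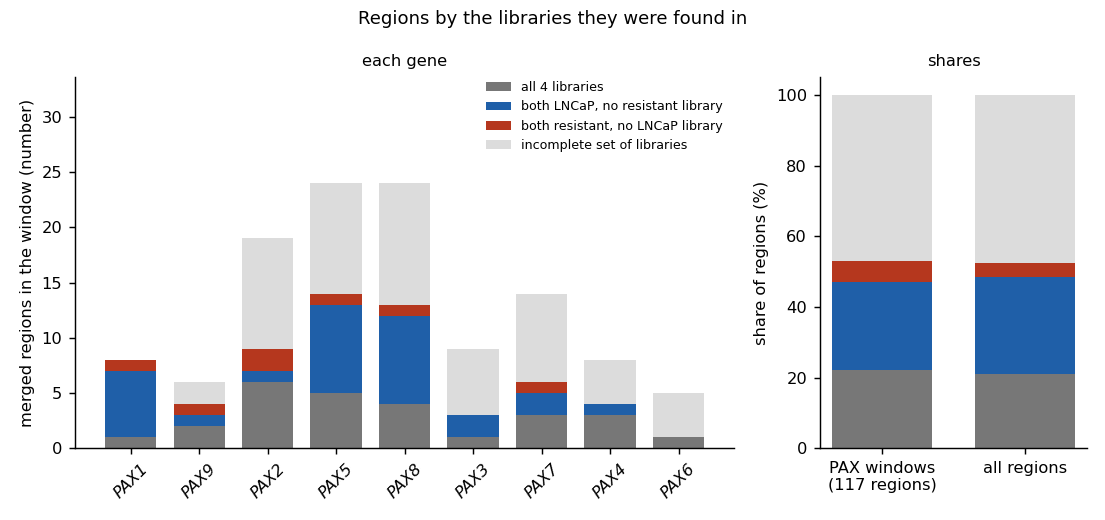
Merged regions in the window of each PAX gene (left, number of regions) and their shares in the 9 windows together and in the whole genome (right, percent), coloured by the libraries in which a summit was found. LNCaP-only regions made up 6 of the 8 regions of PAX1 and none of the 5 of PAX6, while over the family they came to 24.8% against 27.5% of all regions.

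The shares of the subgroups are given as a description, beside 27.5% LNCaP-only among all regions. PAX1 and PAX9 together had 7 LNCaP-only regions of 14 (50%), 6 of them at PAX1. This share rests on PAX1, on which the family was selected, and PAX9 alone had 1 of 6. With equal numbers of summits, described further on, PAX1 had 1 of 4 and PAX9 had 0 of 4. PAX2, PAX5 and PAX8 had 17 of 67 (25.4%), PAX3 and PAX7 had 4 of 23 (17.4%), and PAX4 and PAX6 had 1 of 13 (7.69%). Each subgroup holds only 2 or 3 genes, and windows differed in length from 107.9 kb at PAX4 to 301 kb at PAX5.

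By gene, summit counts of both resistant libraries lay below those of both LNCaP libraries at 4 of the 9 genes, PAX1, PAX4, PAX5 and PAX8, against 61% of all protein-coding genes. At least 1 LNCaP-only region was present at 8 genes, all but PAX6, against 83.4% of protein-coding genes, and at least 1 resistant-only region at 6, against 37.3%. At no PAX gene did both resistant libraries hold more summits, against 1.45% of all genes. PAX2, whose product acts in kidney and genital duct development, had 14 and 9 summits in LNCaP and 16 and 11 in resistant cells, and was the only member with a higher mean count in resistant cells. PAX6, a regulator of eye and pancreas, had 3 and 3 in LNCaP and 4 and 2 in resistant cells. The counts at PAX3 were 5 and 5 against 5 and 1, those at PAX7 were 6 and 9 against 8 and 5, and those at PAX9 were 5 and 4 against 4 and 3. At all of these the cell types overlapped.

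When each list was reduced to its 45618 highest-scoring summits, the length of the shortest list, the direction of the family total turned. The PAX windows then held 29 and 30 summits in LNCaP and 43 and 41 in resistant cells. Gene windows in general turned too. The median count difference per window, resistant minus LNCaP, went from −2 to 1 at the PAX genes. Over all protein-coding genes it went from −3 to 0.5. LNCaP-only regions were 5 of 60 (8.33%, against 17.1% of all regions under the same reduction) and resistant-only regions 15 of 60 (25%, against 14.9%), while 14 were shared (26.8% of all regions). Counts were higher in both resistant libraries at 4 genes, PAX2, PAX5, PAX7 and PAX9 (30.4% of all protein-coding genes), and lower at PAX4 alone (18.1%). PAX2 supplied 7 of the 15 resistant-only regions, with 3 and 3 summits in LNCaP and 12 and 11 in resistant cells. Without PAX2, resistant-only regions were 8 of 47 (17%), nearer to the genome's 14.9%, and LNCaP-only regions were 5 of 47 (10.6%, against 17.1%). Which cell type holds more summits at the PAX genes thus depended on the length of the lists. Percentiles given for equal numbers were ranked again within the cut lists. This lowers the percentiles of summits kept from the longer LNCaP lists and leaves resistant replicate 2, the shortest list, unchanged.

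**Figure D2:**
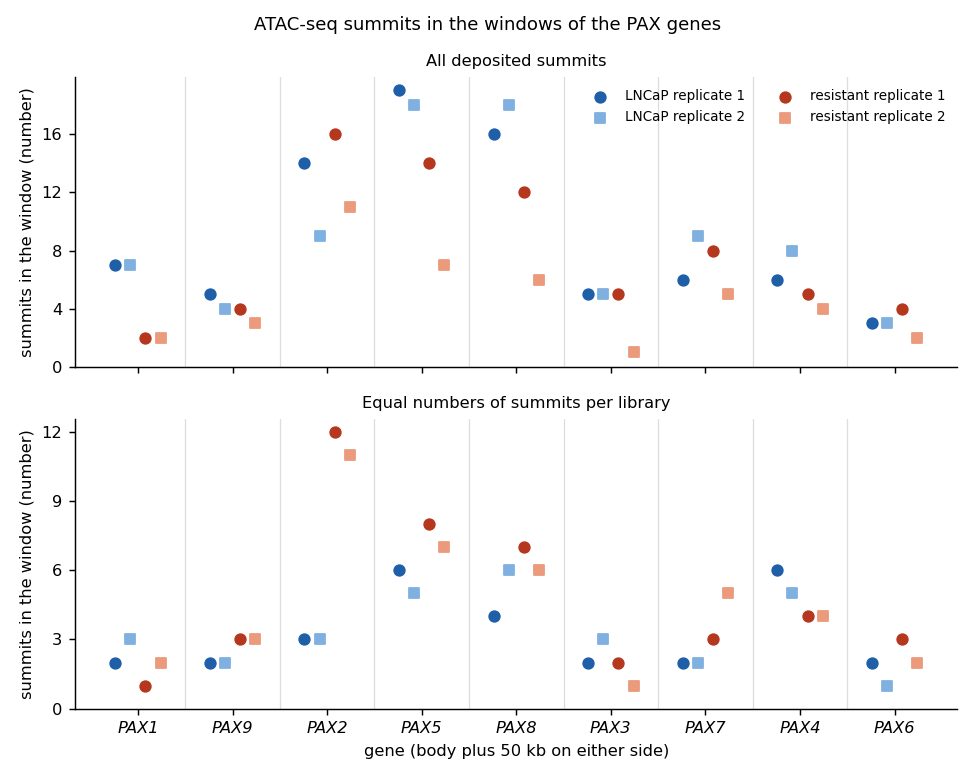
Number of summits in the window of each PAX gene in the 4 libraries, with all deposited summits (top) and with every list cut to its 45618 strongest summits (bottom). PAX1 went from 7, 7, 2 and 2 summits to 2, 3, 1 and 2, while PAX2 went from 14, 9, 16 and 11 to 3, 3, 12 and 11.

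PAX1, at chr20:21705664-21718481, encodes a factor needed for the vertebral column and the thymus. Its window held 7 and 7 summits in LNCaP cells and 2 and 2 in resistant cells. They formed 8 regions, of which 6 were LNCaP-only, 1 was shared and 1 was resistant-only. Among 17514 windows of protein-coding genes with at least 5 regions, 35 (0.2%) had a LNCaP-only share as high as the 75% of PAX1. This share is part of what the family was selected on and is given as a description. PAX1 had 1 LNCaP-only region of 4 once the lists held equal numbers of summits.

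The LNCaP-only region with the highest percentiles at PAX1 lay 7632 bp above the gene, at chr20:21725860-21726367. Its summit reached the percentiles 78.2 and 82.2 in the LNCaP libraries, and neither resistant library had a summit there. Another lay at the lower-coordinate end of the gene itself, with its middle 201 bp inside it, at 56.7 and 56.1 in LNCaP and with no summit in resistant cells. One more, 32800 bp above the gene, was at 33.2 and 69.3 in LNCaP and absent from both resistant libraries.

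A single PAX1 region was kept in all libraries. It lay 2509 bp below the gene, 430 bp from an end of the non-coding gene LINC01726, and its percentiles were 77.3 and 85.1 in LNCaP and 73.5 and 60.1 in resistant cells. The resistant values were lower by 14.4 on average, with a pooled SD of 7.75 between replicates. The resistant-only region, 34957 bp below the gene, was weak, at 33.0 and 9.58. With equal numbers of summits the kept region lay at 41.6 and 65.0 in LNCaP and 58.8 and 60.1 in resistant cells, so the cell types overlapped. The region above the gene stayed specific to LNCaP, at 43.9 and 58.1, and the region at the gene end had no summit left in any library.

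Along chromosome 20, the longest unbroken series of LNCaP-only regions that reached into the PAX1 window counted 4 regions. A series of this length, over 39.9 kb, lay below the gene. Only its last region, 43915 bp from the gene, lay in the window. Another series of 4 ran from chr20:21705610 to chr20:21751557, from the lower-coordinate end of the gene past its upper end. Of 28317 such series in the genome, 998 (3.52%) were as long or longer, and the longest held 12. Passing over shared and incomplete regions, the series at PAX1 counted 31 LNCaP-only regions over 818 kb, with no resistant-only region between them, 2 shared regions and 11 found in an incomplete set of libraries. PAX1 was the only protein-coding gene within it, beside 9 non-coding genes. On this second count 220 of 4604 series (4.78%) were as long, the longest held 101 regions, and the longest at PAX3 held 40, more than at PAX1. Within 1 Mb on either side of the window, 41.1% of 129 regions were LNCaP-only at PAX1, against 12.2% to 34.9% at the other 8 genes. The 818 kb series at PAX1 lies partly in this span, so its share is part of what the family was selected on.

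The protein-coding genes whose summits per 100 kb were closest to those of PAX1 in the 4 libraries, by Euclidean distance, were SYCE1, MSMO1 and MRPS6. SYCE1 had 7, 7, 2 and 2 summits at a distance of 0.126, MSMO1 had 7, 7, 2 and 2 at 0.212, and MRPS6 had 11, 10, 3 and 3 at 0.417. LNCaP-only regions numbered 3, 4 and 6 at these genes, and 2, 2 and 3 regions were shared.

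PAX9, at chr14:36657568-36679362, is the paralog of PAX1 and is required for teeth and pharyngeal pouch derivatives. Its window held a region near the top of every list, which spans the second start site printed above, at chr14:36661547-36662351. The percentiles were 99.1 and 97.9 in LNCaP and 98.1 and 98.8 in resistant cells, a mean difference of −0.136 with a pooled SD of 0.694. In 3 libraries the strongest summit lay between 61 and 63 bp before the start site, within the printed bases, and in LNCaP replicate 2 it lay 241 bp after it.

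Around this region other sites at PAX9 differed. A region 4201 bp above the gene had percentiles of 94.0 and 84.9 in LNCaP and 44.6 in resistant replicate 1, with no summit in resistant replicate 2. A region directly downstream of the start site region was at 48.3 and 55.9 in LNCaP and absent from both resistant libraries. The downstream region had no summit left in any library with equal numbers of summits. At a half-width of 500 bp, PAX9 had no LNCaP-only region. Higher in resistant cells, a region 9440 bp before the first start site was at 51.0 and 13.6 in LNCaP and at 77.1 and 81.4 in the resistant libraries. A weak resistant-only region 1495 bp before that start site was at 29.3 and 23.8. The region above the gene kept its order with equal numbers of summits, at 84.5 and 64.5 in LNCaP against 13.9 and none.

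**Figure D3:**
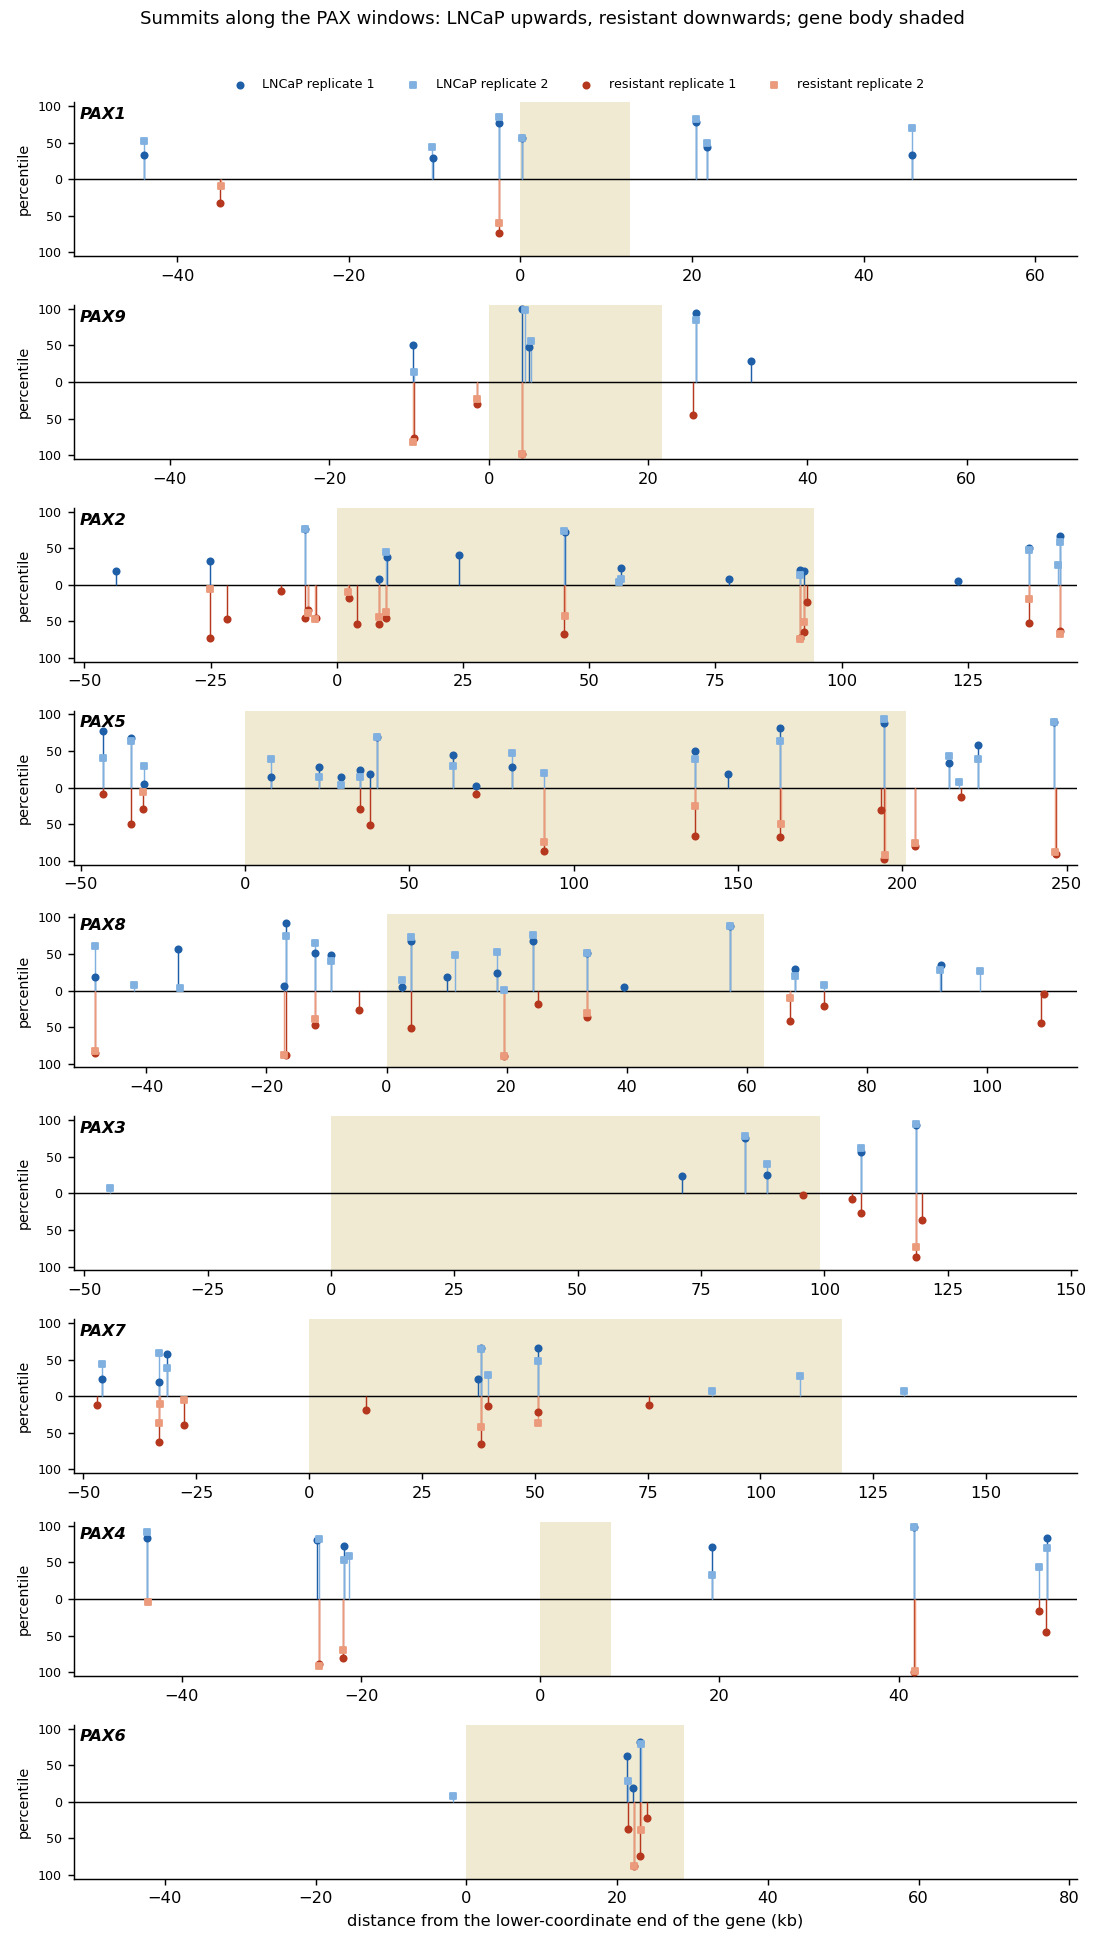
Summits along the window of each PAX gene by distance from the lower-coordinate end of the gene (kb, each panel on its own scale), with LNCaP percentiles drawn upwards and resistant percentiles downwards and the gene body shaded. PAX1 has 7 LNCaP summits per library above its line and 2 resistant summits below it, and the strong PAX9 summit near the 98th percentile stands on both sides.

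PAX2, at chr10:100735396-100829944, had only 1 LNCaP-only region among 19, and it was weak, at 23.6 and 7.62. Near the upper end of the gene body, 2853 bp inside it, a region lay at 20.2 and 13.6 in LNCaP and at 72.9 and 73.6 in resistant cells. A neighbouring region 1934 bp inside that end was at 19.0 in LNCaP replicate 1, absent from LNCaP replicate 2, and at 64.0 and 51.2 in resistant cells. Both therefore lay higher in the resistant libraries without overlap. The stronger resistant-only region of PAX2, 4231 bp before the first start site, was at 45.7 and 46.3. On the other side, the strongest LNCaP region, 6240 bp before that start site, went from 76.9 and 76.5 to 45.8 and 38.3, and a region 45108 bp inside the gene from 72.3 and 73.6 to 66.6 and 42.4. At the last of these the direction turned with equal numbers of summits, to 28.9 and 37.9 in LNCaP against 48.1 and 42.4 in resistant cells.

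PAX5, at chr9:36833269-37034268, is the commitment factor of B cells and had 19 and 18 summits in LNCaP and 14 and 7 in resistant cells. Of its 24 regions, 8 were LNCaP-only, 5 were shared and 1 was resistant-only. That region, at chr9:37036777-37037294, lay 2767 bp before the start site and reached 79.8 and 74.9, with no summit in LNCaP. Inside the gene, 90963 bp from its lower end, a region was absent from LNCaP replicate 1, at 20.4 in LNCaP replicate 2, and at 86.7 and 74.5 in resistant cells. The strongest LNCaP-only region, 40212 bp from the lower end, was at 69.2 and 69.5.

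The strongest PAX5 region was held by all libraries. It lay 6470 bp inside the gene from its start, 147 bp from an end of the non-coding gene LOC105376031, at 88.8 and 93.5 in LNCaP and 96.7 and 91.5 in resistant cells. The cell types overlapped there. Below the gene, a region 43170 bp away went from 76.8 and 40.7 to 8.20 and none, and one 34837 bp away from 68.1 and 63.1 to 49.3 and none. Both were missing only from resistant replicate 2, the library with the shortest list. With equal numbers of summits neither kept the cell types apart. The first was then at 40.4 in LNCaP replicate 1 alone. The second was at 18.0 and 13.2 in LNCaP against 21.3 and none in resistant cells.

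PAX8, at chr2:113215997-113278921, acts in thyroid, kidney and Müllerian duct and contained the largest opposite shifts of the family. At chr2:113272970-113273490, 5691 bp inside the gene from its start, the LNCaP libraries had summits at 88.1 and 87.8 and the resistant libraries had none. At chr2:113235236-113235770, 25 bp from an end of the antisense gene PAX8-AS1, LNCaP replicate 1 had no summit, LNCaP replicate 2 had one at 0.809, and the resistant libraries were at 89.2 and 89.5. The replicates stood close together at both sites, with pooled SDs of 0.159 and 0.423. With equal numbers of summits the first stayed at 69.4 and 71.3 in LNCaP against none, and the second at 83.3 and 89.5 in resistant cells against none.

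Other PAX8 regions differed in either direction. One 24332 bp inside the gene from its lower end was LNCaP-only at 68.1 and 75.7. One 4148 bp inside that end went from 67.0 and 72.9 to 51.1 and none, missing only from resistant replicate 2. With equal numbers of summits the first stayed LNCaP-only, at 17.9 and 42.9. The cell types overlapped at the second, at 15.2 and 36.3 in LNCaP against 24.1 and none. A region 48510 bp below the gene went from 18.5 and 60.1 in LNCaP to 85.8 and 82.3 in resistant cells. The resistant-only region, 4268 bp before the start site, was at 41.9 and 9.58, and at a half-width of 500 bp PAX8 had none. Regions 11905 bp below the gene and 33355 bp inside it were present in all libraries and lower in resistant cells, at 51.1 and 64.6 against 47.7 and 38.9 and at 50.7 and 51.7 against 36.1 and 30.3. The direction turned at both with equal numbers of summits, to mean differences of 20.5 and 15.1.

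PAX3, at chr2:222199887-222298998, specifies neural crest and muscle precursors. Its strongest region lay 19386 bp before the start site, 87 bp from an end of the non-coding gene CT75 and 1771 bp from an end of RNF228, at 93.3 and 94.0 in LNCaP and 87.3 and 73.6 in resistant cells. Inside the gene, 15152 bp from its start, a region was LNCaP-only at 74.8 and 78.0, and it remained so with equal numbers of summits, at 35.3 and 48.1. A region 8330 bp before the start site went from 56.1 and 61.7 to 26.3 and none. PAX3 had no resistant-only region.

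PAX7, at chr1:18630846-18748866, marks muscle stem cells and had the lowest top percentiles of the family. Its strongest region, 38104 bp after the start site, had percentiles of 65.1 and 64.5 in LNCaP against 65.8 and 42.2 in resistant cells, which overlap. Another, 50709 bp after the start site, lay at 65.0 and 47.8 in LNCaP and lower at 21.4 and 37.2 in resistant cells. In lists of equal length the second region turned, to a mean difference of 13.5, and the first separated, at 10.3 and 16.4 in LNCaP against 46.8 and 42.2 in resistant cells. The strongest LNCaP-only region, 31501 bp before the start site, was at 57.4 and 38.6. A resistant-only region 27768 bp before it was at 39.7 and 4.80.

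PAX4, at chr7:127610292-127618142, directs the beta-cell lineage of the pancreas and had no summit inside its body in any library. Several strong regions of its window lay at ends of neighbouring genes. The strongest lay 167 bp from an end of SND1, at 98.7 and 97.7 in LNCaP and 99.3 and 98.3 in resistant cells. Another, 30 bp from an end of GCC1, was at 80.0 and 81.8 in LNCaP and higher in resistant cells at 89.2 and 92.0. Away from gene ends, a region 43909 bp below PAX4 was at 82.8 and 90.8 in LNCaP, absent from resistant replicate 1 and at 3.86 in resistant replicate 2. The LNCaP-only region, 11319 bp before the first start site, was at 70.6 and 33.1. A region 48650 bp above PAX4 was at 82.6 and 69.4 in LNCaP and at 44.8 in resistant replicate 1 alone.

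PAX6, at chr11:31789026-31817961, had 5 regions, 4 of them inside the gene within a stretch of its start sites. One, at chr11:31810940-31811461, lay 1244 bp before the third start site. It was at 18.5 in LNCaP replicate 1, absent from LNCaP replicate 2, and at 87.5 and 88.0 in resistant cells. The region next to it, 623 bp after the second start site, was present in all libraries, at 82.0 and 78.5 in LNCaP and lower at 73.5 and 38.0 in resistant cells. The leading region of PAX6 was thus a different one in the resistant libraries. With equal numbers of summits the first region was at 80.5 and 88.0 in resistant cells against none in LNCaP, and at the second the cell types overlapped.

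Over the 9 windows, 9 regions in 6 genes lay higher in both resistant libraries with a mean resistant percentile of at least 50 (7.69% of 117, against 5.8% of all regions). They were at PAX2, PAX4, PAX5, PAX6, PAX8 and PAX9. In the reverse direction, 24 regions lay lower in both resistant libraries with a mean LNCaP percentile of at least 50 (20.5%, against 25.7%), with at least 1 in each of the 9 genes.

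**Figure D4:**
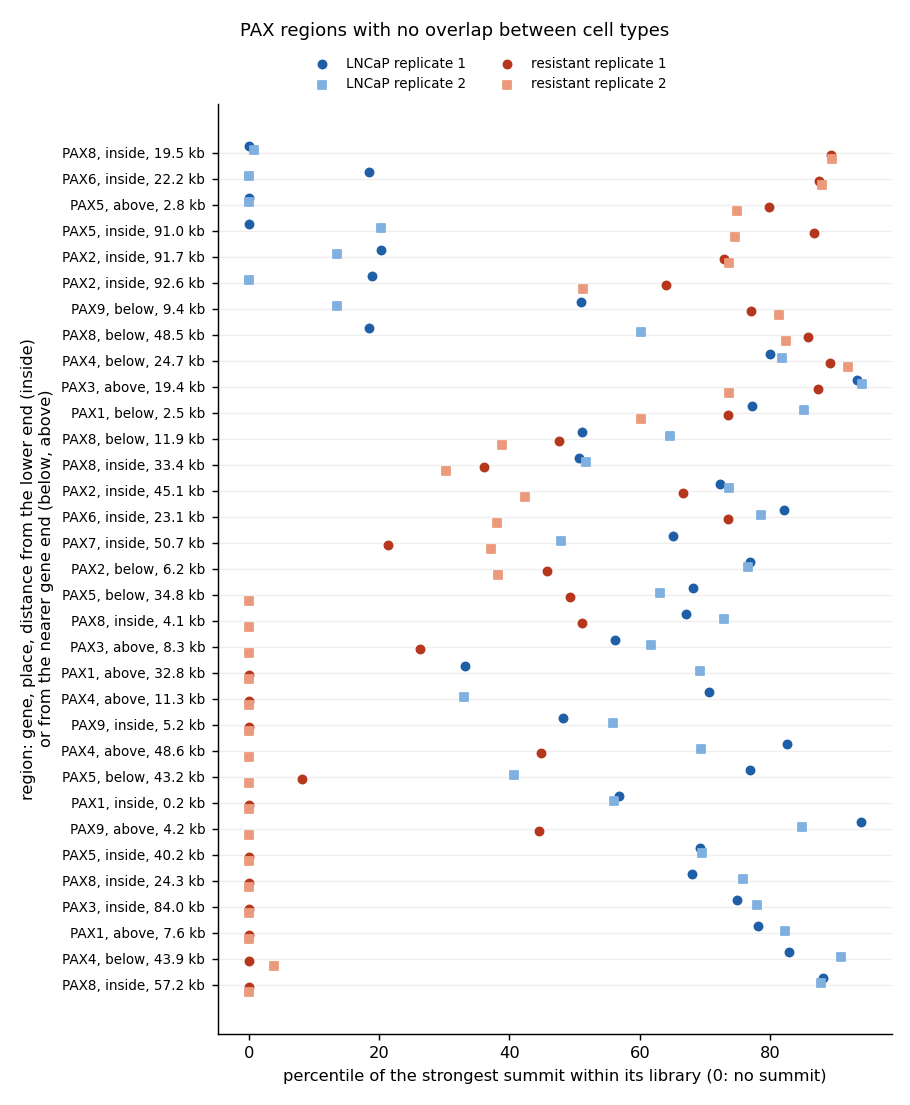
Percentile of the strongest summit in each library (x axis, 0 where a library has no summit) for the 33 PAX regions whose cell types do not overlap and whose mean is at least 50 in 1 cell type, ordered by the difference. The 9 regions at the top lie higher in resistant cells, led by PAX8 at 89.2 and 89.5, and the lowest is the LNCaP-only PAX8 region at 88.1 and 87.8.

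Taking only the strongest summit of a window, PAX1, PAX2 and PAX3 were lower in resistant cells by more than the pooled SD and without overlap, 3 of 9 genes against 44% of all protein-coding genes. The mean differences were −14.8 at PAX1 (pooled SD 7.53), −3.44 at PAX2 (0.417) and −13.2 at PAX3 (6.84). PAX6 was higher by 7.46 (1.78), 1 of 9 genes against 13.3%. At PAX7 the mean difference of −10.8 was smaller than its pooled SD of 11.8, and at PAX4, PAX5, PAX8 and PAX9 the libraries overlapped. The median difference was −0.707 percentile points over the 9 genes and −1.83 over all protein-coding genes. With equal numbers of summits the median over the 9 genes was 10.6, PAX1 turned to 5.02 and PAX2 to 23.1, and PAX7 went to 31.2. The cut itself lowers LNCaP percentiles, and the median over all protein-coding genes was not computed under it. These shifts therefore cannot be set against the genome. With 2 libraries against 2, an exact two-sided permutation test cannot go below p = 0.333.

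Start sites of the PAX genes had few summits. Of the 19 start sites, 4 had a summit within 3 kb in all 4 libraries, against 64.8% of all 22182 start sites of protein-coding genes, and 11 had none in any library, against 19.2%. Counted by gene, 3 of 8, PAX2, PAX6 and PAX9, had a start site with a summit in all libraries, against 68.5% of genes, and 4 of 8, PAX3, PAX4, PAX7 and PAX8, had no summit at any start site, against 17.4%. No start site had summits in the LNCaP libraries alone, against 3.57%. In the resistant libraries alone, summits lay near 3 start sites, against 2.4%. These were at PAX5 with 79.8 and 74.9, at the first site of PAX9 with 29.3 and 23.8, and at the first site of PAX2 with 18.0 and 10.2. None of the 3 lay within 1 kb of the start site. At that distance 3 of the 19 start sites had a summit in all libraries (56.6% of all start sites) and 15 had none (27.4%), and no PAX start site had summits in the resistant libraries alone (3.15%) or in the LNCaP libraries alone (2.38%).

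Across protein-coding genes, most start sites rich in CpG had a summit. The observed over expected CpG ratio, taken over the 300 bases from 250 before to 50 after the start, was at least 0.6 at 13794 start sites, and 86.1% of these had a summit within 3 kb in all libraries while 4.76% had none. Of the 8 PAX start sites above this ratio, 2 had a summit in all libraries and 4 had none. Below the ratio, 29.9% of all start sites had a summit in all libraries and 43% had none, and of the 11 PAX start sites 2 had one in all and 7 had none. The sequences printed above were picked because they run against the relation seen across all start sites. PAX7 had a ratio of 1.07, higher than or equal to 95.2% of all start sites, and no summit in any library, and PAX5 had 0.949 and no summit within 1 kb. The second start sites of PAX9 and PAX2, with a summit in every library, had ratios of 0.556 and 0.578. PAX6 supplied 4 of the 8 CpG-rich sites, so these counts lean on 1 gene.

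**Figure D5:**
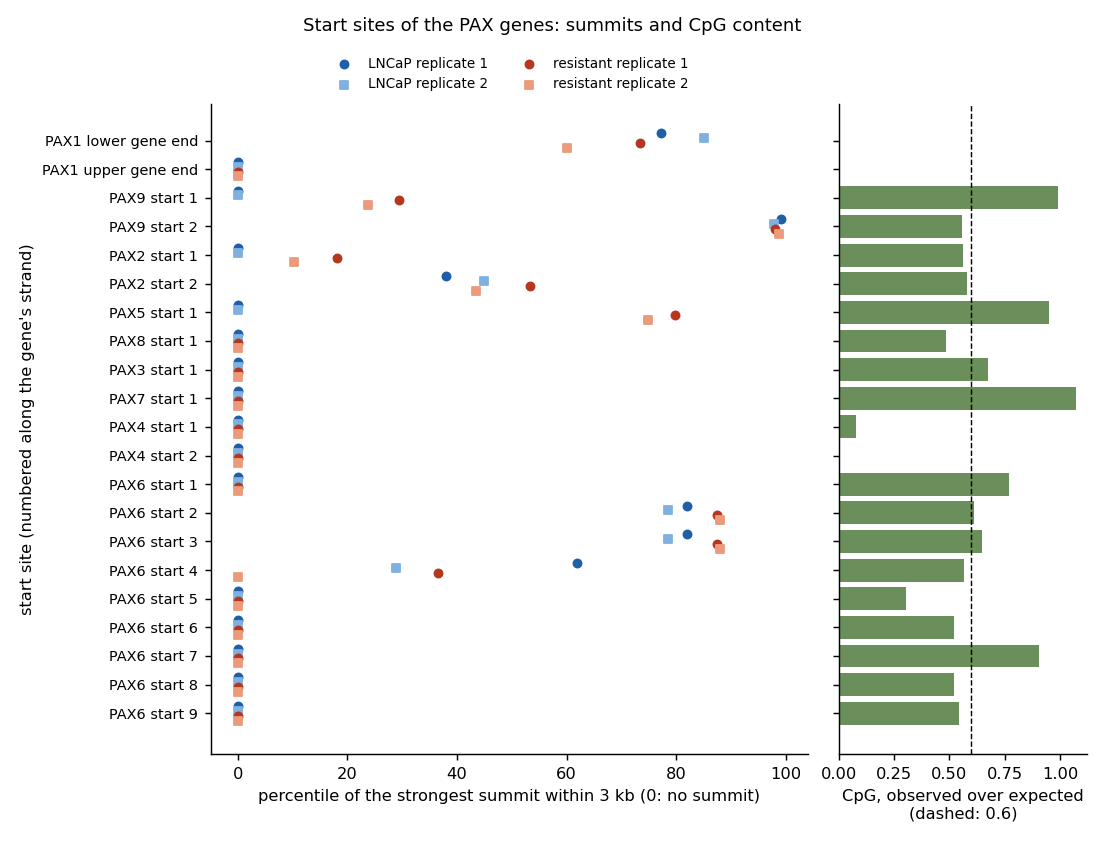
Percentile of the strongest summit within 3 kb of each PAX start site in the 4 libraries (left, 0 where there is none, sites numbered along the strand of the gene) and the observed over expected CpG ratio of the site (right, dashed line at 0.6). PAX9 start 2 stands near the 98th percentile with a ratio of 0.556, and PAX7 start 1 has a ratio of 1.07 and no summit. For PAX1 the gene ends are shown and no ratio was computed.

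In the same 300 bases, searched on both strands, CCAAT was found at 8 of the 19 PAX start sites and at 34.7% of all start sites. GGGCGG, the core of the binding site of SP1, was found at 8 (56.3% of all) and TATAAA at 1, that of PAX5 (9.47% of all). AGAACA, a half-site of steroid receptors including the androgen receptor, was found at 3, PAX5 and 2 sites of PAX6 (11.7% of all), and TGTTTAC, a forkhead motif, at none (2.85% of all). A match describes the letters and not binding.

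PAX proteins work in a network with other factors, among them the EYA coactivators and the DACH corepressors. Summit counts were lower in both resistant libraries at 3 of these 6 genes, against 61% of all protein-coding genes, and higher at none. EYA2 had 21 and 21 summits in LNCaP and 9 and 5 in resistant cells, EYA3 had 14 and 13 against 7 and 5, and EYA1 had 11 and 7 against 4 and 2. At EYA4 the counts overlapped, with 12 and 8 in LNCaP and 8 and 3 in resistant cells. They also overlapped at DACH1, with 6 and 5 against 8 and 4, and at DACH2, with 3 and 2 against 3 and 1. The strongest summit was lower in resistant cells at 3 of the 6, EYA1, EYA2 and EYA3, against 44% of all protein-coding genes. It was higher at DACH1 and DACH2, against 13.3%.

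Among 8 genes known to neighbour PAX genes, counts were lower in resistant cells at 4 (61% of all protein-coding genes) and higher at none (1.45%). The strongest summit was lower at 3 (44%) and higher at 1 (13.3%). LNCaP-only regions made up 23.3% of their regions (27.5% of all regions) and resistant-only regions 8.22% (3.84%). The windows of ELP4 and PAX6 overlap and share summits, so these values are not separate from those of the PAX genes. Those of NKX2-8 and PAX9 overlap too, but no summit lay in the overlap. The windows of NKX2-1 and NKX2-8 also overlap, and shares were summed over windows, so a region there would count in both.

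The 50 kb margin set which summits were counted. The outermost summits inside it were at PAX2, 48731 bp from the gene in LNCaP replicate 1 (percentile 67.0) and 48720 bp in LNCaP replicate 2 (58.6). The nearest outside it were at PAX8, 50245 bp from the gene in LNCaP replicate 2 (20.4) and 50507 bp in LNCaP replicate 1 (82.5). Of the 117 regions, 55 lay inside a gene body, 33 below and 29 above, and 9 lay within 3 kb of an end of another protein-coding gene.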

How the data were processed

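ATAC-seq had been done on 2 libraries of LNCaP cells and 2 of the resistant cells. The authors deposited a summit list per library, in which each position has a score on the scale of a −log10 p-value, and whether p or q was meant is not given in the sources used here. Every list starts just above 1.3, which corresponds to 0.05. The submitters' processing notes name Bowtie2 2.2.5, SAMtools 1.6 and MACS2 2.2.6 and the build hg38, with no role or order. Peaks were called on each library separately, so a weaker library yields fewer summits, and thresholds were not given. Depth is unknown.

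Summits were ranked within their library, widened by 250 bp on either side and merged where they overlapped by at least 1 bp. Genes came from the RefSeq table of GRCh38 (59675 genes on the main chromosomes) and start sites and sequences from its promoter table. Values of the 2 replicates are given as they are, with the pooled SD. A strongest summit was called different where the cell types did not overlap and the difference exceeded the pooled SD. All PAX genes were named, and in each window the region with the highest mean percentile in either cell type and the strongest LNCaP-only and resistant-only regions. Regions with no overlap and a mean of at least 50 were added after seeing the data. Of the PAX network list, the 4 EYA and 2 DACH genes are given and the rest is not reported here. Other genes were named where an end lay within 3 kb of a region described, or as the 3 closest to PAX1. The members and lists were chosen with earlier results of these data known.

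Replicate numbers are shared between the cell types through the label of repeat batches. Over 31833 shared regions, the replicate 1 minus replicate 2 differences of LNCaP and resistant cells had a Pearson r of −0.0121 and a Spearman rho of −0.00668, given as a description. Alternatives were other half-widths (100 and 500 bp), margins (10 and 100 kb), equal numbers of summits, scores from 10 upwards, membership by at least 1 library, 1 summit per 500 bp, 1 kb around start sites, leaving out each library and each replicate number alone. Leaving out ends of other genes and passing over other regions in a series were added after seeing the data. The merging and classification were tested on simulated data. Computation ran in Python 3.11.15 with pandas 2.3.3, numpy 2.4.6, matplotlib 3.10.9 and scipy 1.17.1.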

Additional observations from a re-analysis of the deposited data

How the results depend on the processing

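With equal numbers of summits, the family's summit total, resistant minus LNCaP, went from −25.5 to 12.5, LNCaP-only regions went from 29 to 5, resistant-only from 7 to 15, shared from 26 to 14, the median strongest-summit difference from −0.707 to 10.6 and the PAX1 series from 4 to 1. Also turned were the strongest summit of PAX1 (5.02) and PAX2 (23.1, and 9.50 at a 100 kb margin), the counts of PAX5 (2) and PAX8 (1.5), and the regions 2509 bp below PAX1 (6.20), 45108 bp inside PAX2 (11.9), 50709 bp inside PAX7 (13.5), 11905 bp below PAX8 (20.5) and 33355 bp inside PAX8 (15.1). A score of at least 10 left 9 LNCaP-only and 11 shared regions, a total of −7.5, a median of 0.149 and a series of 2. Margins of 10 and 100 kb gave 19 and 45 LNCaP-only and 14 and 40 shared regions, and 100 kb a total of −42.5. Membership by at least 1 library gave 49, 22 and 46 LNCaP-only, resistant-only and shared regions. Leaving out each library gave 30 to 39 LNCaP-only, 7 to 22 resistant-only and 27 to 34 shared regions, totals of −40 to −11, 4 to 5 start sites with a summit in all libraries, a series of 4 to 6 and a median difference of −2.98 to 0.467. The 22 resistant-only regions came without resistant replicate 2, the 11 without LNCaP replicate 1, the totals of −11 and −40 without resistant replicate 2 and 1, and the positive median without LNCaP replicate 1. With the replicate pairing, number 1 alone gave 27 resistant-only and 40 shared regions, and number 2 alone 51 LNCaP-only and 12 resistant-only regions and a series of 33. Without ends of other genes the median difference was −3.44, and passing over other regions the series was 31. Of the 40 regions described without overlap between the cell types, 31 kept the sign of their mean difference with equal numbers of summits. With scores of at least 10, 37 kept it. This counts the sign alone. Some of the 31 overlapped between the cell types with equal numbers, among them the region 34837 bp below PAX5. The cause of these changes was not tested beyond the list lengths that the reduction equalises.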
